A study of Mus musculus with 15 samples.

Results

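Zinc transporter mRNAs were followed in single mouse oocytes at 2 stages of maturation. The 10 genes were picked by name, as 5 Slc39a importers and 5 Slc30a exporters, out of 28785 gene IDs with a count in any oocyte. All 10 symbols matched an Ensembl ID in the count files. The series holds 6 MII and 9 GV oocytes, each sequenced as its own MATQ-seq library, a method that amplifies total RNA of 1 cell. MII oocytes, mature eggs arrested in metaphase of meiosis II, came from superovulated mice. These received 7 IU of PMSG, a gonadotropin from mare serum, and after about 48 h the ovulation trigger hCG at 7 IU, and their oocytes were taken 20 h after hCG, with the cumulus removed by hyaluronidase at 300 IU/mL. GV oocytes, fully grown and still in meiotic prophase with an intact germinal vesicle, were taken 44 h after 7 IU of PMSG from females aged 6 to 8 weeks. The labels give neither strain nor genotype and do not say which mouse an oocyte came from. Each stage was therefore treated as 1 sample, no test between the stages was made, and differences are given by size beside the spread between oocytes.

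Zinc acts as a signal in the oocyte. It accumulates while the mouse oocyte matures, is needed to hold the egg at metaphase of meiosis II, and is released in bursts known as zinc sparks when the egg is activated. Slc39a (ZIP) proteins move zinc into the cytosol, from outside the cell or out of organelles, and Slc30a (ZnT) proteins move it out of the cytosol, across the cell membrane or into organelles. ZIP6 and ZIP10, the products of Slc39a6 and Slc39a10, are the importers described for the maturing mouse oocyte.

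Levels are in CPM, counts divided by the library total and put on a common scale, with 1 unnamed feature, ENSMUSG00000119584, left out of the totals. This feature took 15.7% to 61.2% of all counts in MII oocytes, highest in MII5 (52.6%) and MII6 (61.2%). In GV oocytes it took 3.43% to 11.2% in GV7 to GV9 and had 0 counts in GV1 to GV6. Remaining totals were 536101 to 1277878 counts per MII oocyte and 3275485 to 7103063 per GV oocyte. Column headers begin with Y in the count files of GV1 to GV6, called the Y set here, and with E in those of GV7 to GV9, called the E set. All MII files have a header of another kind, so effects of stage and of file set cannot be told apart. All 10 oocyte markers, among them Zp3 and Gdf9, had counts at both stages. Markers of cumulus and granulosa cells summed to 5.60 to 61.5 CPM in MII oocytes and 14.7 to 228 CPM in GV oocytes, with 6 of 13 at 0 in MII and 1 of 13 in GV. Markers of theca and stroma (up to 51.2 CPM) and of blood and immune cells (up to 24.3 CPM) were highest in MII5. The part of other cells in the results was not tested.

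The transporters fell into a very abundant importer pair and a low remainder, and this division was shared by the stages. Per kb of exon, Slc39a6 averaged 111 ± 55.7 CPM in MII and 77.4 ± 11.0 CPM in GV (SD, n = 6 and 9), and Slc39a10 57.6 ± 31.8 CPM in MII and 94.1 ± 32.1 CPM in GV. The SD ranges of these importers overlapped at either stage, but this does not pair the values of 1 oocyte. Within each MII oocyte, counts of Slc39a6 were at least 0.970 times those of Slc39a10. Exons cover 4.073 kb in Slc39a6 and 6.095 kb in Slc39a10. Per kb, Slc39a6 therefore stood above Slc39a10 in every MII oocyte, while the order varied between GV oocytes. Next came the exporter Slc30a1, with 3.87 ± 2.74 CPM per kb in MII and 4.81 ± 1.62 in GV. It was followed by Slc30a5, with 2.34 ± 2.07 CPM per kb in MII and 3.02 ± 1.23 in GV, and by Slc39a9, with 1.92 ± 0.97 in MII and 2.11 ± 1.01 in GV. Neighbours among these 3 did not differ beyond their SDs. The other 5 members averaged at most 0.36 CPM per kb in MII and 0.77 in GV. With the longest transcript in place of all exons, 6 of the 10 members kept their rank at each stage, and Slc30a5 stood above Slc30a1.

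**Figure D1:**
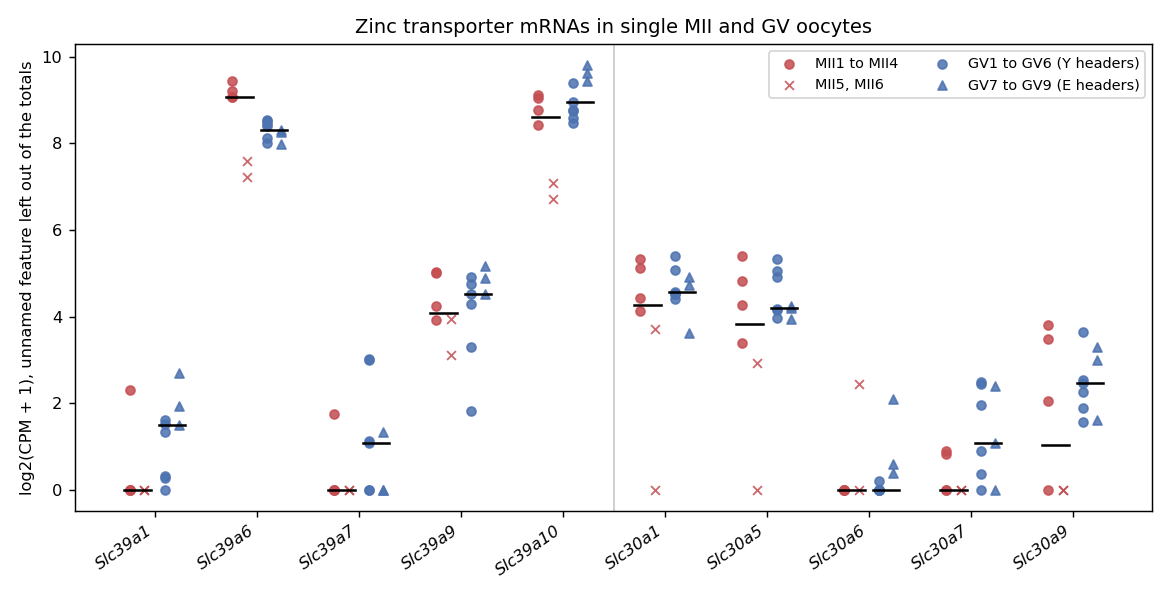
Level of each transporter in every oocyte as log2(CPM + 1), MII oocytes in red left of GV oocytes in blue, with the stage median as a black bar and importers left of the grey line. Slc39a6 and Slc39a10 stand far above the rest, and MII5 and MII6 (crosses) lie lowest of the MII oocytes for each of these.

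Slc39a6 (ENSMUSG00000024270) encodes ZIP6, a plasma membrane importer. Its lowest, median and highest levels were 149.8, 537.5 and 701 CPM in MII oocytes, against 252, 317 and 370.0 CPM in GV oocytes. MII1 to MII4 lay above every GV oocyte, while MII5 (149.8 CPM) and MII6 (191 CPM) lay below every one, so the ranges overlapped. Relative to the median measured gene, the log2 ratio MII/GV of the summed counts was 0.86, or 1.81-fold (95% counting interval 1.74 to 1.89), with a spread between oocytes of 0.96. A measured gene has at least 5 CPM of all counts in the higher stage. The spread combines the SDs of the stages' relative log2 levels per oocyte. It weighs every oocyte alike, while the sums weigh oocytes by depth, so ratio and spread are different measures. Intervals cover counting error only and treat every count as independent. This need not hold after PCR, since the use of molecular identifiers is not stated, so the intervals may be too narrow. The ratio was 0.79 against the Y set, 0.95 against the E set and 1.19 without MII5 and MII6. Its sign depends on the scale: in CPM over all counts, with the unnamed feature included, it was −0.12, and the median measured gene stood at −0.98.

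Slc39a10 (ENSMUSG00000025986) encodes ZIP10, another plasma membrane importer of the same subfamily. Its lowest, median and highest levels were 105.0, 391 and 553 CPM in MII oocytes, against 355, 499 and 896 CPM in GV oocytes. MII5 and MII6 (135 CPM) lay below every GV oocyte, MII4 (345 CPM) just below the lowest, and the other 3 MII oocytes within the GV range. The log2 ratio was −0.22, or 0.857-fold (95% counting interval 0.819 to 0.895), with a spread of 1.13. With each oocyte weighed alike the stages lay further apart. The mean log2 level relative to the median gene was 3.64 in MII and 4.26 in GV, and the ratio of mean CPM was −0.395. In the E set Slc39a10 was at 700.4 to 896 CPM, above all oocytes of the Y set (355 to 677 CPM). The ratio was −0.83 against the E set, 0.00 against the Y set and 0.12 without MII5 and MII6.

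The balance of the importer pair was shifted toward Slc39a6 in MII, and this measure does not depend on any scaling between libraries. It can still depend on the make-up of a library, since the longest transcripts differ in length (3.88 kb and 5.50 kb). The part of length or file set in the ratio was not tested. Counts, not divided by length, of Slc39a6 divided by those of Slc39a10 in the same oocyte ran from 0.970 over a median of 1.39 to 1.56 in MII, against 0.281, 0.585 and 0.963 in GV. In MII, 5 oocytes were at 1.32 or more, MII5 (1.43) and MII6 (1.42) included, and the sixth, MII2, stood just above GV4 (0.959) and GV5 (0.963). The ranges thus did not overlap, but the gap was smaller than counting error, since the 95% counting interval was 0.872 to 1.08 in MII2 and 0.908 to 1.02 in GV5. The mean ratio was 1.34 ± 0.20 in MII and 0.622 ± 0.26 in GV (SD, n = 6 and 9). Within GV it was 0.746 ± 0.22 in the Y set and 0.375 ± 0.087 in the E set. For the summed counts it was 1.27 in MII (95% counting interval 1.20 to 1.34) and 0.5995 in GV (0.587 to 0.612). Of 10088 measured genes divided by Slc39a10 in this way, 1.32% had all MII oocytes above all GV oocytes and 0.377% had all below. The ratio was added after the values of the pair had been looked at.

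The summed level of the pair differed less between the stages. It was 803 ± 413 CPM in MII and 889 ± 172 CPM in GV (SD, n = 6 and 9). MII5 (255 CPM) and MII6 (326 CPM) were the only oocytes below 693 CPM. Long mRNAs as a whole were also low in these libraries. Measured protein-coding genes with a longest transcript of at least 5 kb, less those under 2 kb, had a median log2 level difference of −0.63 in MII5 and −0.25 in MII6, against 1.11 to 1.67 in the other MII oocytes and −0.08 (GV4) to 1.93 in GV oocytes. The longest transcript of Slc39a10 has 5.50 kb and that of Slc39a6 3.88 kb. The part of mRNA length in these levels was not tested.

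**Figure D2:**
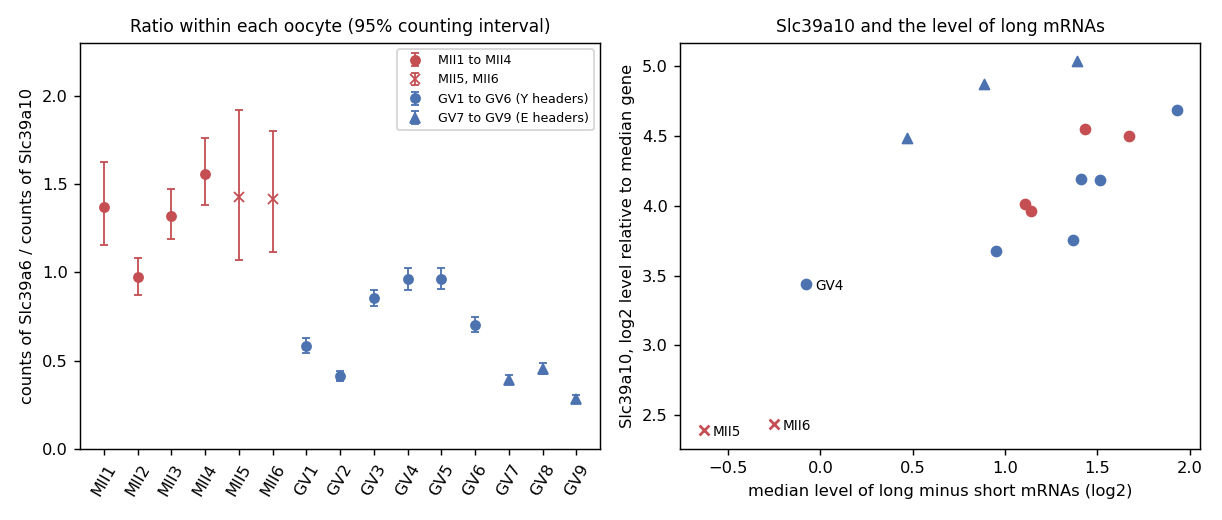
Left, counts of Slc39a6 divided by counts of Slc39a10 in each oocyte with the 95% counting interval, where MII oocytes run from 0.970 to 1.56 and GV oocytes from 0.281 to 0.963. Right, the log2 level of Slc39a10 relative to the median gene against the difference between long and short mRNAs, with MII5 and MII6 lowest on both axes.

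The patterns of 2 members were set beside those of 4068 protein-coding genes over the 15 oocytes, as Pearson correlations of the level relative to the median gene. Closest to Slc39a10 were Cnot1 (r = 0.977), the scaffold of the CCR4-NOT deadenylase, Cobll1 (0.958) and Apc (0.953), a scaffold of Wnt signalling. Within MII oocytes alone these r were 0.981, 0.957 and 0.977, and within GV oocytes 0.965, 0.970 and 0.907. Closest to Slc30a1 were Hook1 (0.937), Gpcpd1 (0.929) and Dido1 (0.911). Within MII oocytes their r were 0.979, 0.962 and 0.956, but within GV oocytes 0.229, 0.536 and 0.332. In MII5, with 0 counts, the relative level of Slc30a1 was −4.34, against −0.97 to 0.57 in all other oocytes. The part of this 1 value in the r was not tested. All values of 1 oocyte share its library and depth, and the long-mRNA difference above.

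The other 3 importers were far lower. Slc39a9 (ENSMUSG00000048833), which encodes ZIP9 of the Golgi and cell surface, was at 7.68, 16.1 and 31.7 CPM (lowest, median and highest) in MII oocytes and 2.50, 22.0 and 35.2 CPM in GV oocytes. The stages overlapped almost fully, with a log2 ratio of 0.19 and a spread of 1.32, and the ratio was 0.38 against the Y set and −0.34 against the E set. Its exons overlap those of Erh on the opposite strand in the annotation used for names, and Erh was at 19.3 ± 8.59 CPM in MII and 18.2 ± 10.9 CPM in GV. The sources used here do not give how strand was counted, so reads from the stretch these genes share cannot be told apart.

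Slc39a1 (ENSMUSG00000052310, ZIP1, a plasma membrane importer) and Slc39a7 (ENSMUSG00000024327, ZIP7, which releases zinc from the endoplasmic reticulum) were near the detection limit. Slc39a1 had 5 counts in MII, all in MII2, and 68 in GV, over 8 of 9 oocytes. Its log2 ratio was −0.47 (95% counting interval −2.26 to 0.70), 0.21 against the Y set and −1.64 against the E set. Slc39a7 had 3 counts in MII, also all in MII2, and 92 in GV, of which 34 were in GV1 and 37 in GV4, with 4 GV oocytes at 0. Its ratio was 0.341-fold (95% counting interval 0.0595 to 0.886) relative to the median gene. On the log2 scale this was −1.55, with −1.90 against the Y set and 0.24 against the E set, which held 6 counts. For neither gene was the direction shared by both sets. A count of 0 in a MII oocyte allows up to 2.35 to 5.60 CPM (3 counts of its total), which is above the GV mean of each of these genes (1.78 ± 1.70 CPM for Slc39a1 and 1.99 ± 2.93 CPM for Slc39a7). A difference between the stages was therefore not detectable oocyte by oocyte at this depth.

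Slc30a1 (ENSMUSG00000037434) encodes ZnT1, the exporter of the plasma membrane. It was at 0, 18.4 and 39.2 CPM in MII oocytes (lowest, median and highest) and 11.2, 22.8 and 41.4 CPM in GV oocytes. Only MII5 was at 0, which allows up to 3.84 CPM there, and the other MII oocytes lay within the GV range. The log2 ratio was −0.05 with a spread of 1.89, and 0.30 without MII5 and MII6. This spread rests largely on the 0 in MII5. The relative log2 level was −0.77 ± 1.84 in MII and −0.19 ± 0.41 in GV (SD, n = 6 and 9). MII5 stood at −4.34 and the other MII oocytes at −0.94 to 0.57. Against the Y set the log2 ratio of Slc30a1 was −0.15 and against the E set 0.16. The antisense gene 1700034H15Rik overlaps its exons and had 0 counts in MII and 31 in GV.

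Slc30a5 (ENSMUSG00000021629) encodes ZnT5, which pairs with ZnT6 to load zinc into the early secretory pathway. Its levels were 0, 13.8 and 41.0 CPM in MII oocytes and 14.4, 17.4 and 39.0 CPM in GV oocytes. MII5 again had 0 counts, and MII4 and MII6 lay below every GV oocyte. The log2 ratio was −0.14 with a spread of 1.91, and 0.25 without MII5 and MII6. The Y set gave −0.28 and the E set 0.23. Here too the spread rests largely on MII5. The relative log2 level was −1.09 ± 1.81 in MII and −0.39 ± 0.60 in GV (SD, n = 6 and 9). MII5 stood at −4.34 and the other MII oocytes at −1.73 to 0.63.

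Slc30a1 is a classic target of MTF-1, the zinc-sensing transcription factor that binds metal response elements. The 250 bases before the start of 9 members, in 10 windows from RefSeq (GRCm38.p6), were searched on both strands for the core of this element, written as TGCACNC or TGCGCNC. Slc30a1 and Slc30a5 held 1 match each and the other 7 members none, while 21.4% of 32851 windows of all genes held at least 1. The windows with a match are shown 5′ to 3′ on the gene's strand, with the match in capitals. In each it lies on the opposite strand, so the capitals are its reverse complement, and it begins 43 bases before the start in Slc30a1 and 48 bases before it in Slc30a5. The first window is chr1:191906531-191906780 (plus strand) and the second chr13:100833428-100833677 (minus strand). A match describes these letters only.
Slc30a1: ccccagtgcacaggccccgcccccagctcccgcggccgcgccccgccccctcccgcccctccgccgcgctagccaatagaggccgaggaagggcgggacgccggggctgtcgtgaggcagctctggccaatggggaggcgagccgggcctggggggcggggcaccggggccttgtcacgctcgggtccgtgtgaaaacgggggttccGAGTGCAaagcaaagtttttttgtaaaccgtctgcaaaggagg
Slc30a5: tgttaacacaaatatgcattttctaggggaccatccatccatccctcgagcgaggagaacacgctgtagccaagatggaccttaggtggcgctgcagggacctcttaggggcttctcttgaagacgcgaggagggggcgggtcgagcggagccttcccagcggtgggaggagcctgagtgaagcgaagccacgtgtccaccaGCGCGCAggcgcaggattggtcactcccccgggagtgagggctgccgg

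The remaining exporters had few counts. Slc30a6 (ENSMUSG00000024069), which encodes ZnT6, the partner of ZnT5, had 4 counts in MII, all in MII6, and 16 in GV, of which 12 were in GV8. Its log2 ratio of 1.30 had a 95% counting interval of −0.87 to 2.80, and it was −0.65 against the E set, which held 15 of the 16 counts. Slc30a7 (ENSMUSG00000054414), which encodes the Golgi exporter ZnT7, had 2 counts in MII and 80 in GV over 7 of 9 oocytes, 0.280-fold relative to the median gene (95% counting interval 0.0268 to 0.841). The log2 ratio was −1.91 against the Y set and −1.75 against the E set, both resting on the same 2 MII counts. A count of 0 in a MII oocyte allows up to 2.35 to 5.60 CPM here too. That is above the GV mean of Slc30a7 (2.05 ± 1.99 CPM). Slc30a9 (ENSMUSG00000029221), which encodes ZnT9 of mitochondria, had 24 counts in 3 MII oocytes and 215 counts over all 9 GV oocytes, a log2 ratio of 0.03 with a spread of 1.85. It was 0.09 against the Y set and −0.24 against the E set. Thinned to 536101 counts each, MII oocytes held counts of 3 to 8 of the 10 members and GV oocytes of 5 to 9.

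None of the 5 members with at least 5 CPM differed 2-fold between the stages relative to the median gene. Of all 10090 measured genes 72.4% stayed within 2-fold, 15.5% lay further below and 12.1% further above. In CPM the MII and GV ranges overlapped for each of the 10 members, where 0.763% of measured genes had all MII oocytes above all GV oocytes and 1.35% all below. These shares compare only with the 5 measured members. For Slc39a1, Slc39a7, Slc30a6 and Slc30a7, some oocytes of each stage were at 0 CPM, so overlap was fixed. In relative levels the ranges also overlapped for all 10, where the background of measured genes was 1.62% above and 0.872% below. The median log2 ratio was −0.10 over all 10 members, −0.22 over the 5 importers and −0.05 over the 5 exporters, low counts included, against 0 for the measured genes by construction. The sign of these medians was not stable. That of the importers was 0.19 over the 3 measured ones and 0.21 for all 5 against the Y set. Without MII5 and MII6 the median was 0.19 over the 10 members, 0.12 over the importers and 0.25 over the exporters. Slc39a6, the highest of the 5, lay at percentile 84.7 of the measured genes, and Slc39a10, the lowest, at percentile 39.0. Without MII6 alone the log2 ratio of Slc39a6 was 1.01, just past 2-fold.

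**Figure D3:**
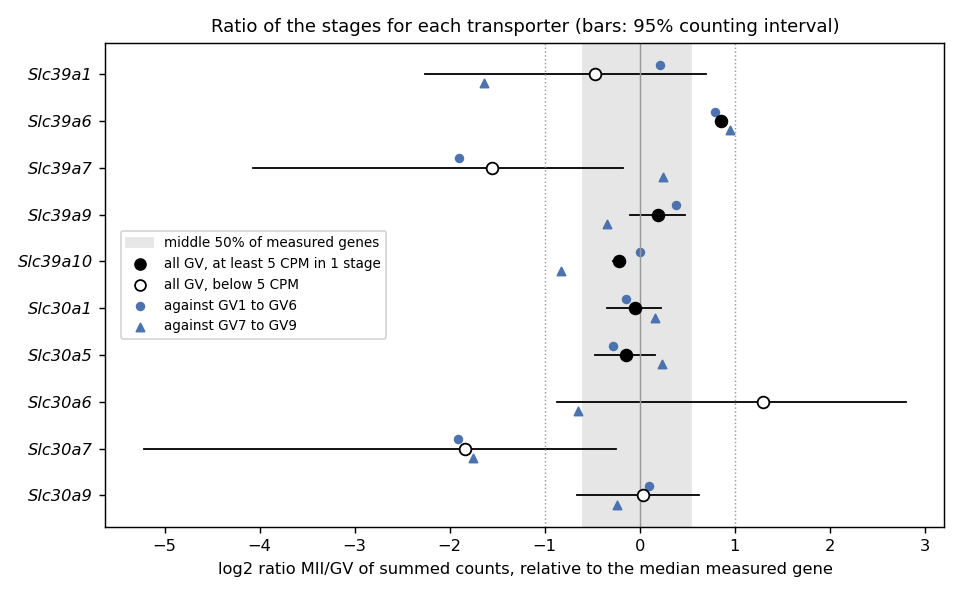
Log2 ratio MII/GV of summed counts relative to the median measured gene, with the 95% counting interval, for all GV oocytes (black or open circles) and against each set of GV files (blue, where the set held over 3 counts). Filled members have at least 5 CPM in 1 stage, and all 5 lie between the dotted lines at 2-fold, outside which 15.5% (lower) and 12.1% (higher) of the measured genes fall.

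The 14 other genes of these families were examined for context. Slc39a6 and Slc39a10 made up 95.7% of the counts, not corrected for length, of all 14 Slc39a genes in MII (exact binomial 95% interval 95.1% to 96.2%) and 94.5% in GV (94.2% to 94.7%). The Slc30a counts were dominated by a gene outside the 10, Slc30a3, which encodes ZnT3, the exporter that fills synaptic vesicles of neurons with zinc. It took 89.2% of the counts of the 10 Slc30a genes in MII (88.2% to 90.1%) and 90.4% in GV (90.1% to 90.7%), against 4.68% in MII and 5.34% in GV for Slc30a1 and Slc30a5 together. These intervals cover counting error only, and single oocytes varied more. The share of Slc30a3 ran from 70.2% to 95.95% over MII oocytes and from 76.2% to 95.3% over GV oocytes. That of Slc30a1 and Slc30a5 ran from 0% to 15.1% in MII and from 3.15% to 11.2% in GV. For Slc39a6 and Slc39a10 it was 83.2% to 98.1% in MII and 91.3% to 97.3% in GV. Slc30a3 averaged 243 ± 124 CPM per kb in MII and 279 ± 87.8 CPM per kb in GV (SD, n = 6 and 9), the highest of the 24 genes at either stage. Its level was 347 to 1195 CPM in MII and 357 to 1181 CPM in GV, with a log2 ratio of 0.07 (0.06 against the Y set and −0.02 against the E set). In MII5 (912 CPM) and MII6 (1195 CPM) it was high, where the importer pair was low. In MII1 to MII3 it was at 347 to 437 CPM, with the pair at 1033 to 1232 CPM. It was also high in MII4 (872 CPM) and GV3 (1181 CPM), with the pair at 883 and 792 CPM. Its longest transcript has 2.09 kb. Neither a relation to the pair nor the part of mRNA length was tested.

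**Figure D4:**
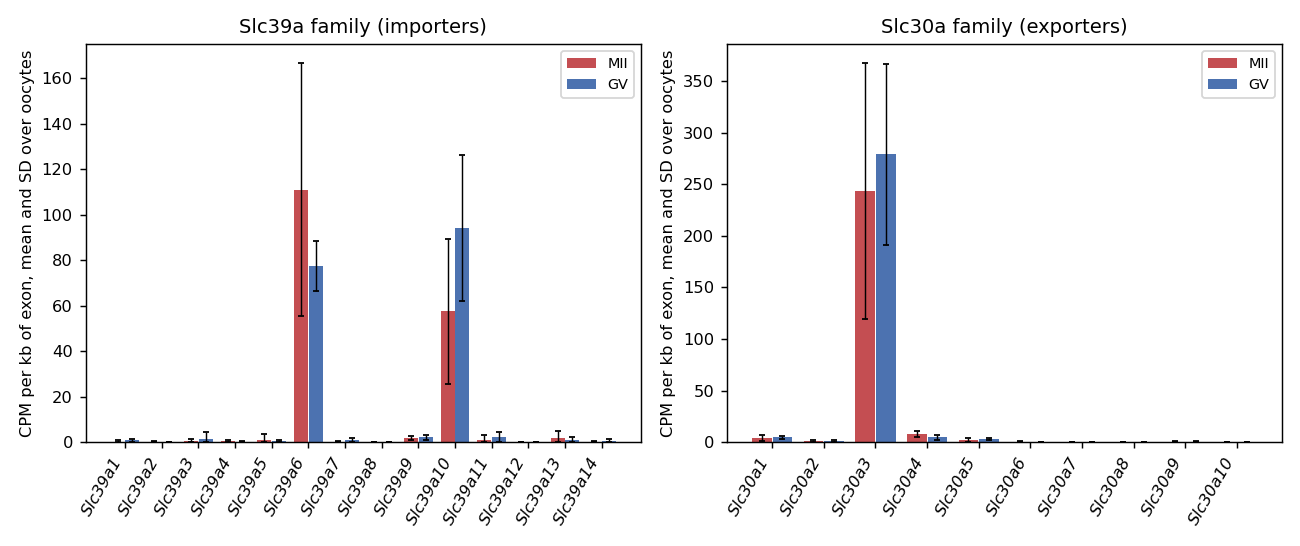
Mean level per kb of exon of every Slc39a gene (left) and Slc30a gene (right) in MII (red) and GV oocytes (blue), with SD over 6 and 9 oocytes. Slc39a6, Slc39a10 and Slc30a3 carry nearly all of the signal at either stage.

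Of the other measured Slc39a and Slc30a genes, Slc30a4, which encodes ZnT4 of endosomal and lysosomal membranes, was at 20.9 to 65.3 CPM in MII and 8.93 to 51.6 CPM in GV, a log2 ratio of 0.94 with a spread of 1.03. The ratio was 0.69 against the Y set and 1.87 against the E set. Slc39a13, which encodes ZIP13 of the secretory pathway, was at least 2-fold higher (1.20, spread 2.60), but 46 of its 50 MII counts were in MII5 and MII6. Slc39a3, which encodes ZIP3, was at least 2-fold lower (−1.15, spread 1.97), with 170 of its 269 GV counts in GV6, and the ratio was 0.13 without that oocyte and 0.28 against the E set. Slc39a11, which encodes ZIP11, had 22 counts in MII, 16 of them in MII6, and 353 in GV. Its log2 ratio of −0.80 (spread 1.97) was 1.14 against the E set, which held 22 counts. Slc30a2, which encodes the vesicular exporter ZnT2, had 19 counts in MII and 237 in GV, only 3 of them in the E set, with a ratio of −0.44 and a spread of 2.04.

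Of 8 genes listed that sense, store or carry zinc, 5 were in the count files and 2 were measured. Mtf1, which encodes MTF-1, was detected in every oocyte, at 425 to 587 CPM in MII and 309 to 802 CPM in GV, with a log2 ratio of 0.36 and a spread of 0.58 (0.41 against the Y set and 0.11 against the E set). The metallothionein gene Mt1, a zinc-binding store and target of MTF-1, had 3 counts in MII, all in MII3, and 49 in GV. Mt2 and Mt3 were also listed, but their IDs were in no count file used here, so no level is given for them. Trpm7, a zinc-permeable channel and kinase of the egg, was at 2.20 to 52.2 CPM in MII and 17.4 to 84.8 CPM in GV, a log2 ratio of −0.58 with a spread of 1.65 (−0.76 against the Y set and −0.02 against the E set). Across all 6 lists of other zinc genes, 30 of the 33 listed were in the count files and 15 were measured. Of these 15, 1 lay below and 1 above the 2-fold limits and 13 within them.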

How the data were processed

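For every oocyte the authors deposited a list of Ensembl gene IDs with whole counts of reads or tags, not normalized. Per the submitters' processing notes, the tools included STAR 2.7.10a and cutadapt 4.0, with the build GRCm39. Which tool made the counts, from which annotation, and whether strand or molecular identifiers were used, is not stated in those notes, the labels or the files. A gene found in the files of some oocytes was taken as 0 counts in the others. Symbols, and the exon lengths and overlaps computed from its exons, came from GENCODE M21 (GRCm38). The only coordinates printed are those of RefSeq promoter windows (GRCm38.p6). A symbol was found for 98.7% of the IDs. Zng1 was not matched, and Slc39a6 has no promoter window here.

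The counts of a stage's oocytes were added up, 0.5 was added to each sum, and the log2 ratio MII/GV was taken on CPM over all counts and given relative to the median measured gene (at least 5 CPM in the higher stage). Levels per oocyte are CPM without the unnamed feature, and relative levels are log2(CPM + 1) less the median over measured genes in that oocyte. Intervals are exact Poisson, binomial or, for ratios, conditional binomial at 95%. No test was made, since no mouse is named. The lowest chi-square per degree of freedom between oocytes of 1 stage was 7.26 over 51 pairs, so none agreed within sampling noise. The ratio was tested on simulated data with 200 changed genes, all with a mean of at least 20 CPM. Genes near the detection limit were thus not covered, and the shift of the unnamed feature between the stages was not simulated.

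The 10 genes, the lists and the treatment of the unnamed feature were chosen with earlier results of these data known. All 10 are named. From the other lists a gene could be named if measured or, among the rest, if the most abundant of its list. The measured Alpl, Enpp2 and Pigo are counted but not described. The 3 most similar genes were named for the Slc39a and the Slc30a member with the most counts per kb of exon over all 15 oocytes together (Slc39a10 and Slc30a1), among protein-coding genes with at least 20 CPM at each stage. Alternatives were other scales (edgeR 4.0.16 TMM and DESeq2 1.42.0 size factors included), means or medians over oocytes, thinning, other filters, each set of GV files alone and oocytes left out. Tools were Python 3.11.15, pandas 2.3.3, scipy 1.17.1 and R 4.3.3.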

Additional observations from a re-analysis of the deposited data

Results flagged for a closer look

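In 22 groups of values (10 members and the importer ratio at each stage), 4 held an oocyte far from the others. Chance flags about 1 in 20 groups of continuous values. That rate does not hold for these 4, where most or all of the other oocytes are at 0 and a few counts stand apart. In MII the values that stood apart were those of Slc39a1 in MII2 (3.91 CPM), Slc39a7 in MII2 (2.35 CPM) and Slc30a6 in MII6 (4.39 CPM), each with the other 5 oocytes at 0 CPM. In GV oocytes it was Slc30a6 in GV8 (3.30 CPM), with the next at 0.510 CPM. These values rest on 5, 3, 4 and 12 counts.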

How the results depend on the processing

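Relative to the median gene, no alternative made any of the 5 measured members 2-fold lower, but in CPM over all counts 3 were, and 1 (Slc39a6) was 2-fold higher with medians over oocytes and without MII5 and MII6. Leaving out single oocytes gave 0 to 1 higher. The median measured gene stood at −0.98 in CPM over all counts, −0.31 without the unnamed feature, and −0.11 (TMM) or −0.06 (median of ratios) with the other scales. The Slc39a6 to Slc39a10 balance (log2 MII minus GV, 1.08) was 1.77 against the E set, 0.79 against the Y set and 0.98 to 1.24 with single oocytes left out. Of the other zinc genes, the number 2-fold lower (1) was 7 in CPM over all counts, 3 with medians over oocytes, 2 without the feature, against the Y set and without MII5 and MII6, 0 when thinned or against the E set, and 0 to 2 with single oocytes left out. The number 2-fold higher (1) was 4 against the E set, 2 with means or medians over oocytes, thinning or without GV1 and GV2, 0 in CPM over all counts, without the feature and without MII5 and MII6, and 0 to 2 with single oocytes left out. Slc39a3 turned to 0.28 against the E set and ran from −2.73 to 0.13 with single oocytes left out. Slc39a13 turned to −0.41 with medians over oocytes and −1.81 without MII5 and MII6. The cause was not tested. Of 130 ratios of single members under alternatives other than leaving out 1 oocyte, 120 moved by less than the spread. Other scales and filters shift every gene by the same amount, at most by the −0.98 above. The spreads of the members were 0.96 to 1.91, so these outcomes were nearly fixed in advance. The count is therefore no measure of robustness. No paired analysis was possible because the numbers shared by GV and MII oocytes only name cells and no test was made. Members under 5 CPM are limited by depth.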

Other observations

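Casein kinase 2, which activates ZIP7 by phosphorylation in human cells, was expressed at both stages although Slc39a7 itself was near 0. Its catalytic subunit gene Csnk2a1 was at 131 ± 33.8 CPM in MII and 106 ± 41.8 CPM in GV (SD, n = 6 and 9), a log2 ratio of 0.64 with a spread of 0.68. The ratio was 0.44 against the Y set and 1.30 against the E set, which was at 61.6 to 72.4 CPM. The other catalytic subunit gene, Csnk2a2, was at 115 ± 34.0 CPM in MII and 186 ± 50.8 CPM in GV (−0.39, spread 0.52, with −0.49 against the Y set and −0.17 against the E set), and the regulatory subunit gene Csnk2b at 66.3 ± 35.5 CPM in MII and 98.3 ± 34.9 CPM in GV (−0.28, spread 0.85, with −0.15 against the Y set and −0.72 against the E set). The ranges of the stages overlapped for all 3.

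Of 5 enzyme genes of the secretory pathway whose products bind zinc, 4 were measured and all 4 were within 2-fold. The most abundant was Car9, which encodes a carbonic anhydrase of the cell surface, at 62.9 ± 55.3 CPM in MII and 67.8 ± 43.7 CPM in GV (SD, n = 6 and 9), with 174 CPM in MII5. Its log2 ratio of 0.16 (spread 1.44) was 0.58 against the Y set and −0.72 against the E set. None of 3 genes of known binding partners of zinc transporters was measured. The most abundant, Tmc8, had 0 counts in MII and 145 in GV, of which 102 were in GV8 and 42 in GV4.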
